A study of Bos taurus with 81 samples.

Results

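H3K27ac is an acetylation of histone H3 found at active enhancers and promoters, and in the growing oocyte it lies over the regulatory DNA that the oocyte uses before it falls silent. The sites described here carried H3K27ac in the fully grown bovine oocyte and in no later stage that was grown without inhibitor. They were chosen on the 29 autosomes, cut into bins of 1 kb from position 0, where a bin counted as marked in a library if peaks covered at least 50% of it. A bin was a member if it was marked in both H3K27ac libraries of the germinal vesicle oocyte and in none of the 14 H3K27ac libraries of the 7 later control groups. Of 2488055 autosomal bins, 101428 (4.08%) were marked in both oocyte libraries, and 39071 of these (38.5%) were oocyte-only.

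The groups came from cattle oocytes of slaughterhouse ovaries and from embryos made from such oocytes by in vitro maturation and fertilization. Germinal vesicle oocytes (GV) were taken before maturation, and control embryos were taken at the 2-cell (2C, 32 h after insemination), 4-cell (4C, 44 h), 8-cell (8C, 56 h), morula (MO, 122 h) and blastocyst (BL, 172 h) stages. The inner cell mass (ICM) was isolated by immunosurgery and the trophectoderm (TE) by cutting blastocysts with a micro scalpel. One further 8-cell group (8A) was cultured with 50 μg/ml α-amanitin, an inhibitor of RNA polymerase II, up to the same 56 h. Each library pooled about 500 oocytes or 1000 to 1500 blastomeres. H3K27ac, H3K4me3, H3K9me3 and H3K27me3 were mapped with 2 libraries per group by CUT&Tag, in which an antibody directs a transposase to a histone mark. ATAC-seq, in which a free transposase tags open chromatin, had 3 libraries in each of BL, ICM and TE. The labels do not say that replicates came from separate collections, so p-values measure only the spread between these libraries.

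The other marks have well known associations. H3K4me3 lies at active promoters in most cells, and in the oocyte it also spreads over broad distal domains that are removed after fertilization. H3K27me3 is laid down by Polycomb repressive complex 2 and covers silent developmental genes, while H3K9me3 marks heterochromatin and repeats.

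Peak lists differed in extent. The lists covered 43.4 to 142 Mb of the autosomes for H3K27ac, 37.7 to 176 Mb for H3K4me3, 110 to 281 Mb for H3K27me3, 96.6 to 188 Mb for H3K9me3 and 80.8 to 117 Mb for ATAC-seq. The lists give no read totals, so sequencing depth is unknown, and shares of members are read against the share of all autosomal bins marked in the same library. A bin called unmarked lacked a peak over most of its length, which does not show that the modification was absent.

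The 39071 members formed 26533 runs of adjoining bins, of which 19108 (72.0%) were single bins and 550 held 5 bins or more. The longest runs held 14 bins. Of the runs, 10011 (37.7%) adjoined another bin that was marked in both oocyte libraries but was not a member. These runs therefore lay beside oocyte H3K27ac that was also found in at least 1 later control library. The other runs had no such bin directly beside them, but may have had one further off.

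H3K27ac peaks over members only were narrower than those over other oocyte bins only, and peaks that spanned both were the widest. In the first oocyte library, 32538 peaks lay over members only, with a median width of 700 bp and a median score at percentile 63.1 of the list. In the same library the 47228 peaks over other oocyte bins only had a median width of 850 bp and a median score at percentile 71.9. The second oocyte library gave 900 bp and percentile 61.0 for 27591 peaks over members, against 1050 bp and percentile 70.1 for 41279 peaks over the other bins. Peaks over both members and other oocyte bins numbered 8247 and 8465 in the 2 libraries, with median widths of 1700 and 2000 bp and median scores at percentiles 91.8 and 90.8. The score is the authors' own value per peak and ranks peaks within 1 list only. The median member was covered over 700 bases in the less covered oocyte list.

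These values follow from the choice of members and are a description. Of the members, 5370 lay just inside the coverage limit in the oocyte, with 500 to under 550 covered bases in the less covered list, and 5872 bins that met the later condition lay just outside it, with 450 to under 500 bases. On the later side, 2295 members reached 450 to under 500 covered bases in their most covered later list, while 2676 oocyte bins reached 500 to under 550 bases there and were not members. No base was covered in any later control list in 26501 members (67.8%), and 12570 had some covered bases in at least 1 later list.

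Choosing bins with 1 group left out shows how each group would have marked them. Bins chosen from the other oocyte library alone were marked in 58.5% of 66839 cases in the first oocyte library and in 74.9% of 52147 cases in the second. With 2C left out, 11.7% and 15.5% of the 49738 bins so chosen were marked in the 2 libraries of 2C, against 2.34% and 2.91% of all bins. The 2C group was the one that most often marked bins chosen without it.

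Other groups marked fewer of the bins chosen without them. In 8C they marked 8.81% and 8.58% of 44411 bins (all bins 3.88% and 3.84%), and in 4C 1.97% and 2.43% of 40640 (all bins 1.26% and 1.36%), above all bins in both groups. The shares were 3.80% and 4.55% of 41471 in MO and 3.39% and 2.88% of 40807 in ICM. In TE they were 0.646% and 0.823% of 39477 bins, and in BL 0.0205% and 0.0614% of 39103. For MO, ICM, TE and BL these shares lay below those of all bins in the same libraries, which were 4.54% and 4.74%, 4.11% and 3.83%, 2.28% and 2.40%, and 1.91% and 2.15%. Since BL, ICM and TE share cells of the blastocyst, leaving out 1 of these 3 leaves the other 2 in the choice.

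In the α-amanitin group, which the choice did not use, H3K27ac lay on oocyte-only bins slightly more often than on all bins in each library. The mark was found on 5.12% and 5.80% of members in the 2 libraries of 8A, against 3.85% and 4.13% of all bins. In both libraries of 8A 994 members were marked (2.54%, where 2.65% of all autosomal bins were), and in neither 35800 (91.6%, where 94.7% of all bins were). Both shares are near the background and are no result about the members.

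Oocyte bins that were found again later had far more H3K27ac in 8A. A bin is called kept here if it was marked in both oocyte libraries and in both libraries of at least 1 later control group. There were 42631 kept bins, and 45.3% of them were marked in both libraries of 8A. Among the kept bins were 7458 that were unmarked at 2C and 4C and marked in both libraries of 8C, and 33.1% of these were marked in both libraries of 8A. Members were required to be unmarked in 8C, and kept bins were not, so this order is a description.

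To set 8A beside 8C, bins were chosen without the 8C lists. Of these 44411 bins, 7.77% and 8.56% were marked in 8A and 8.81% and 8.58% in 8C. The groups did not overlap, but lay 0.529 percentage points apart (8A minus 8C -0.529, exact two-sided permutation p = 0.33, the smallest that 2 against 2 libraries allow). The sign of this difference turned to 0.875 points where any covered base marked a bin and to 0.921 points without 2C replicate 2.

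The 994 members with H3K27ac in both libraries of 8A differed in their other marks from the 35800 members without it. H3K4me3 marked a mean of 61.2% of them in GV, 47.7% in 2C and 40.9% in 8C, against 30.6%, 9.34% and 3.74%. ATAC-seq peaks in BL marked 23.3% of them against 3.98%. H3K27me3 in BL marked 49.6% against 33.5%. In 2C, 4C and 8C, by contrast, H3K27me3 and H3K9me3 were less frequent on the 994 members. H3K27me3 in 2C marked 0.956% of them against 3.62%, and H3K9me3 in 8C marked 2.06% against 6.01%. Of all bins, H3K4me3 marked 6.64% in GV, 4.74% in 2C and 3.74% in 8C. ATAC-seq in BL marked 3.77% of all bins, H3K27me3 11.1% in BL and 4.84% in 2C, and H3K9me3 6.74% in 8C. These are means over the libraries of a group, and differences between classes of bins were not tested, because bins of 1 library are not replicates. Other bins were not split by H3K27ac in 8A, so these differences are not shown to be particular to members.

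**Figure D1:**
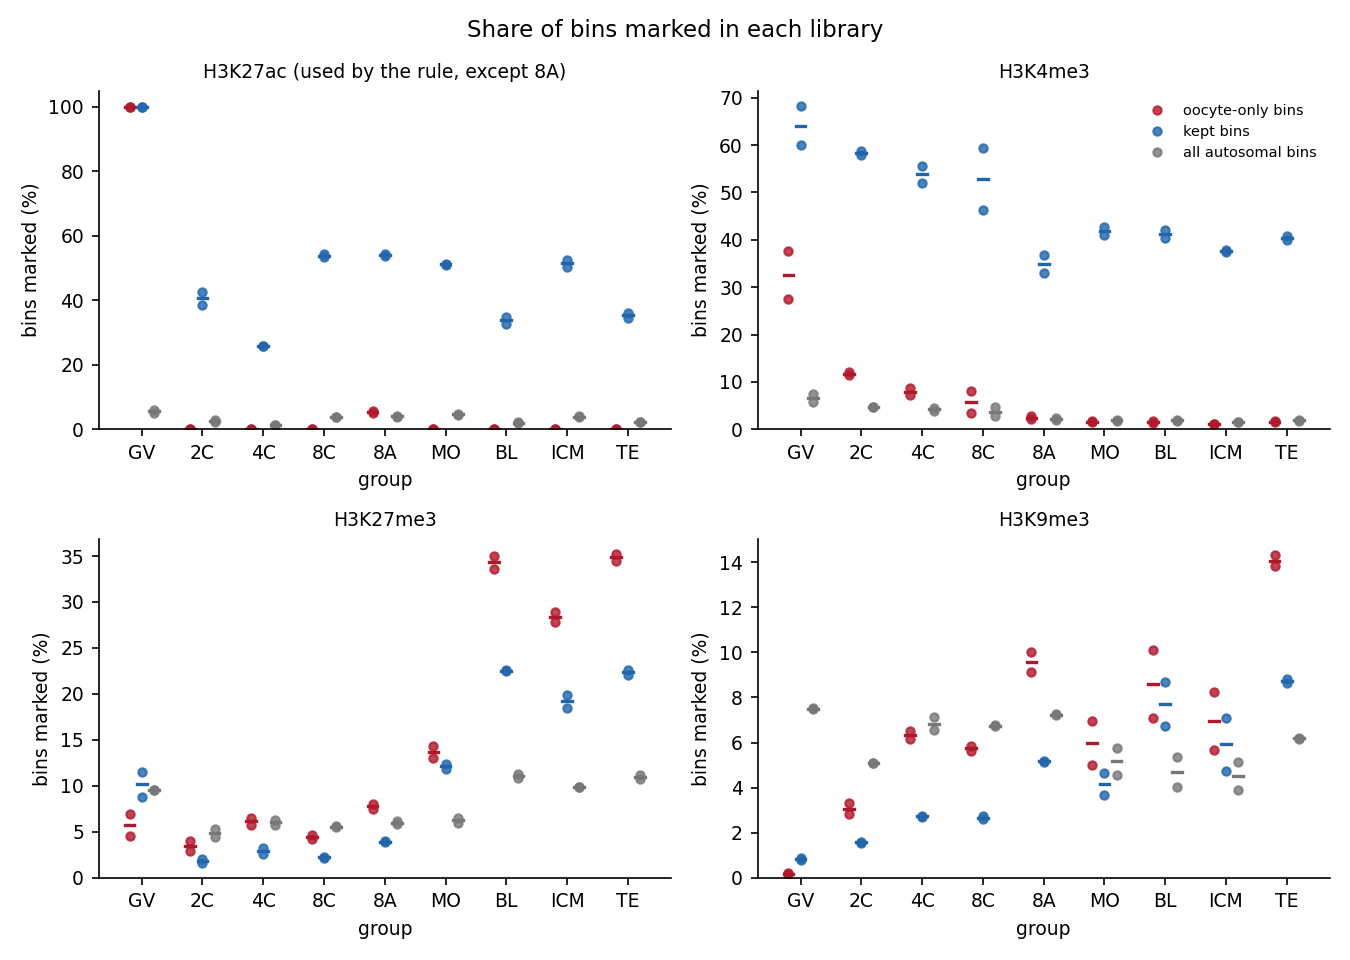
Share of bins marked (percent, y axis) by H3K27ac, H3K4me3, H3K27me3 and H3K9me3 in each library of each group (x axis), for oocyte-only bins (red), kept bins (blue) and all autosomal bins (grey). Points are libraries and dashes are group means. H3K27ac is fixed by the choice of bins except in 8A, H3K4me3 on oocyte-only bins goes from 27.5% and 37.6% in GV to below 2% from MO on, and H3K27me3 on them reaches 33.6% and 35.0% in BL.

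H3K4me3 was on about 3 in 10 oocyte-only bins in the oocyte and declined on them through cleavage, to below the share of all bins from MO on. It marked 27.5% and 37.6% of members in the 2 libraries of GV, which was 4.73 and 5.03 times the share of all bins. It marked 11.4% and 12.0% in 2C (all bins 4.76% and 4.72%), 7.24% and 8.67% in 4C (all bins 3.85% and 4.52%), and 3.41% and 8.11% in 8C (all bins 2.76% and 4.72%). All later groups were lower than GV, with 1.53% and 1.71% in MO, 1.39% and 1.66% in BL, 1.17% and 1.21% in ICM and 1.67% and 1.51% in TE.

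From MO on these shares lay below those of all bins, which were 1.56% to 2.02% in the libraries of MO, BL, ICM and TE. The 8 libraries of these 4 groups did not overlap with any library of GV, 2C, 4C or 8C. Enrichment was tested as the log2 of the share of members over the share of all bins in the same library. It was 2.29 ± 0.06 in GV (SD, n = 2) and had a median of -0.21 in the 14 later libraries, which ranged from -0.42 to 1.35. The difference between GV and the later libraries was 2.06 (exact permutation p = 0.00833, the smallest that 2 against 14 libraries allow, adjusted over 3 marks 0.0125). Across the 8 control groups the permutation test gave an adjusted p of 3e-05. Libraries of 1 later group resembled each other, so the 16 libraries are not fully exchangeable in these tests. Members were chosen for H3K27ac in GV and its absence later, and H3K27ac lies with H3K4me3 at promoters. The fall of H3K4me3 on members, and its shares below all bins from MO on, are therefore tied to the choice.

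Both libraries of GV carried H3K4me3 on 8573 members (21.9%, where 4.79% of all bins did), and neither did on 22215 (56.9%, where 91.5% of all bins did not). Of the 8573, 3743 (9.58% of members, against 0.8% of all bins) carried it in no later control library, so that both marks were found in the oocyte only. In BL 476 members (1.22%) carried H3K4me3 in both libraries, against 1.73% of all bins.

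The 8573 members with both marks in the oocyte were followed through the stages. Both H3K4me3 libraries marked 22.5% of them at 2C, 15.4% at 4C, 8.98% at 8C, 3.36% in MO and 2.69% in BL, where 3.44%, 3.04%, 2.54%, 1.65% and 1.73% of all bins were marked. Of 23462 kept bins with H3K4me3 in both libraries of GV, 73.8% were marked at 2C, 59.7% at 8C and 44.6% in BL. Oocyte H3K4me3 bins with no H3K27ac in any list, 23181 in number, gave 32.3% at 2C, 13.0% at 8C and 0.975% in BL. The decline of H3K4me3 on members was therefore nearer to that on H3K4me3 bins without H3K27ac than to that on kept bins. Kept bins were picked for later H3K27ac, which lies with H3K4me3 at promoters, so their later H3K4me3 is tied to their choice. Members and the H3K4me3 bins without H3K27ac both lack later H3K27ac by choice, so their likeness is tied to it as well.

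The members also differed from kept bins in how H3K4me3 changed after the oocyte. The log2 ratio of members to kept bins was -1.12 and -0.86 in GV and lay between -5.002 and -2.29 in all 14 later libraries. GV exceeded the later libraries by 2.94 (exact permutation p = 0.00833, the smallest possible, which adjustment over 3 marks left at 0.00833). The groups of libraries did not overlap. Members were chosen to lack later H3K27ac and kept bins to have it, so this difference is tied to the choice of bins.

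**Figure D2:**
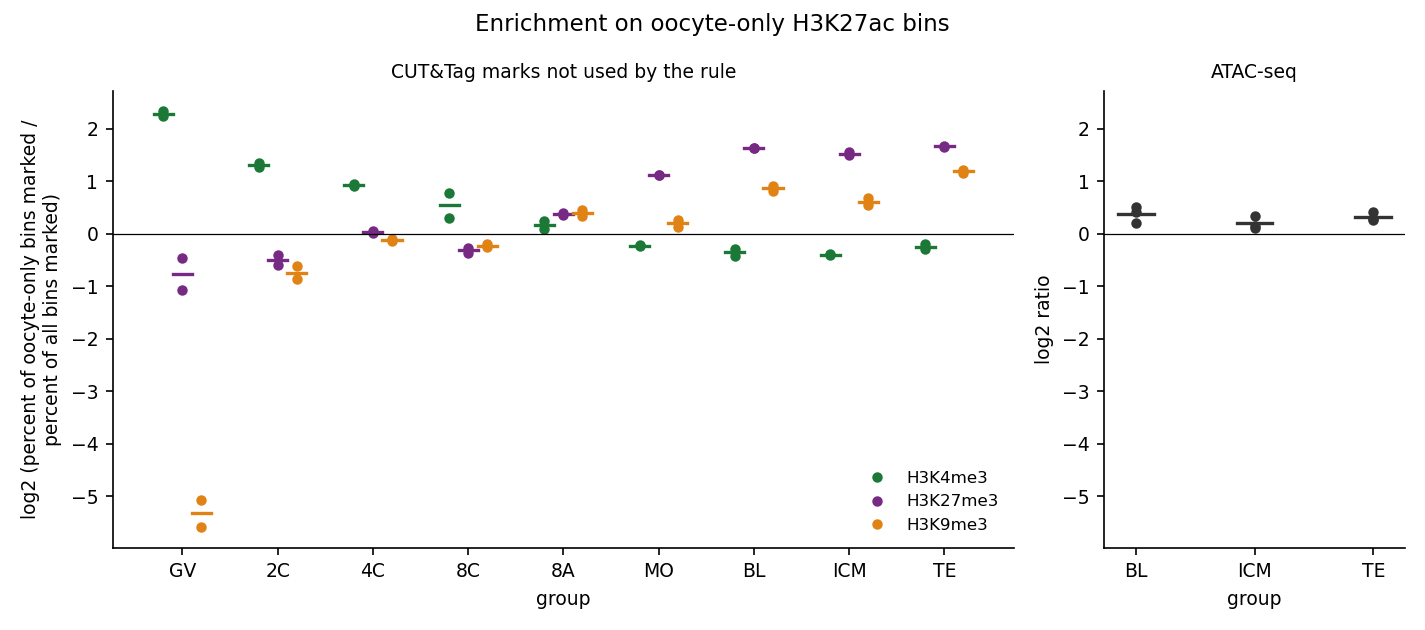
Enrichment of each mark on oocyte-only bins (y axis, log2 of the percent of oocyte-only bins marked over the percent of all autosomal bins marked) by group (x axis), with points for libraries and dashes for group means, for H3K4me3 (green), H3K27me3 (purple) and H3K9me3 (orange), and ATAC-seq in the right panel. H3K4me3 goes down from 2.29 in GV to below 0 from MO on, H3K27me3 and H3K9me3 go from below 0 in GV to 1.67 and 1.19 in TE, and ATAC-seq stays between 0.11 and 0.52.

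H3K27me3 was rare on oocyte-only bins up to the 8-cell stage and common on them in the blastocyst. It marked 6.96% and 4.56% of members in GV, where it marked 9.55% of all bins in each library. It marked 2.91% and 3.95% in 2C, 6.55% and 5.80% in 4C, and 4.27% and 4.66% in 8C. Shares in these 4 groups lay below or close to those of all bins, which were 4.42% to 6.30% after GV.

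The share then went up in MO and again in BL. H3K27me3 marked 14.3% and 13.1% of members in MO, against 6.55% and 6.00% of all bins. It marked 33.6% and 35.0% in BL, against 10.9% and 11.3%, which is 3.08 and 3.10 times as many. ICM gave 28.9% and 27.8%, against 9.88% and 9.89%, and TE gave 34.5% and 35.2%, against 10.8% and 11.2%. Every library of MO, BL, ICM and TE was above every library of GV, 2C, 4C and 8C.

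In both libraries of BL 11942 members were marked by H3K27me3 (30.6%, against 9.66% of all bins), and in both libraries of MO 4372 (11.2%, against 5.26%). In both libraries of GV 1511 were marked (3.87%, against 7.28%). The BL, ICM and TE libraries all marked 7770 members (19.9%, against 6.52%). Between 8C and MO 3369 members went from neither library to both (8.62%, against 3.75% of all bins), and between MO and BL 6670 did (17.1%, against 4.18%). Of kept bins, 9.31% did so between 8C and MO and 9.54% between MO and BL. Both libraries of MO marked 10.6% of kept bins, and both libraries of BL 20.7%.

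Most of this blastocyst H3K27me3 lay where the oocyte lists had none. Of the members, 9690 were marked in both libraries of BL and in neither of GV (24.8%, against 4.53% of all bins), and 1212 were marked in both libraries of both stages (3.10%, against 4.02%). Among the 11942 members with H3K27me3 in BL, 10.1% had it in both libraries of GV, and 67.8% were unmarked by it in both libraries of each of GV, 2C, 4C and 8C. Among all 240312 bins with H3K27me3 in BL these shares were 41.7% and 35.8%. Of 8832 kept bins with H3K27me3 in both libraries of BL, 5449 had it in neither library of GV and 2440 in both. H3K27ac and H3K27me3 modify the same lysine, and members and kept bins were all chosen for H3K27ac in GV. Their low share of H3K27me3 in the oocyte is therefore tied to the choice.

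Enrichment of H3K27me3 on members was -0.76 ± 0.43 in GV (SD, n = 2), and its median in the later libraries was 1.12. GV minus the later libraries was -1.50 on this log2 scale (exact permutation p = 0.0167, adjusted over 3 marks 0.0167). The oocyte values of -0.46 and -1.07 overlapped with those of 2C, which were -0.60 and -0.41. Across the 8 control groups the permutation test gave an adjusted p of 7e-05. Members chosen without H3K27ac GV replicate 1 gave a difference of -0.90 with an adjusted p of 0.275, and the unscaled share of members gave -12.1 percentage points with an adjusted p of 0.325. H3K27ac and H3K27me3 modify the same lysine, and members were chosen for H3K27ac in GV and its absence later. The difference between GV and later libraries is therefore tied to the choice.

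H3K27me3 was more frequent in BL than in GV on kept bins as well. It marked 11.5% and 8.77% of them in GV and 22.6% and 22.5% in BL. The log2 ratio of members to kept bins was -0.73 and -0.94 in GV and 0.14 to 1.14 in the later libraries, with no overlap. The difference of -1.55 had an exact permutation p of 0.00833, the smallest possible. Members were chosen to lack later H3K27ac and kept bins to have it, and both marks modify the same lysine, so later ratios of members to kept bins are tied to the choice here too.

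H3K9me3 was nearly absent from oocyte-only bins in the oocyte. It marked 0.156% and 0.223% of members in GV, where it marked 7.54% and 7.47% of all bins. In both libraries of GV 38 members were marked (0.0973%, against 5.82% of all bins). Kept bins had a low share as well, 0.812% and 0.861%.

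In the later libraries the share of members under H3K9me3 was below that of all bins up to 8C and above it from MO on. It was 2.81% and 3.30% in 2C (all bins 5.09% in each), 6.15% and 6.50% in 4C (all bins 6.56% and 7.12%) and 5.86% and 5.64% in 8C (all bins 6.76% and 6.73%). It was 5.01% and 6.95% in MO (all bins 4.58% and 5.76%), 7.07% and 10.1% in BL (all bins 4.03% and 5.38%) and 5.66% and 8.23% in ICM (all bins 3.88% and 5.13%). The 2 libraries of MO, BL and ICM lay further apart than those of the other groups. TE had the highest shares of the control groups, 13.8% and 14.3%, against 6.16% and 6.20% of all bins.

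Enrichment of H3K9me3 in GV was -5.32 ± 0.37 (SD, n = 2), below all 14 later libraries, which ranged from -0.86 to 1.21. The difference was -5.58 (exact permutation p = 0.00833, the smallest possible, adjusted over 3 marks 0.0125). Members were chosen for H3K27ac in GV and its absence later, so this difference is not free of the choice of bins. The permutation test across the 8 groups gave p = 1e-05, the smallest that 100000 resamples allow, and an adjusted p of 3e-05. Against kept bins the log2 ratio was -2.37 and -1.94 in GV and 0.07 to 1.23 later, a difference of -2.85 without overlap (exact permutation p = 0.00833, the smallest possible), with the same tie to the choice of bins.

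H3K9me3 on members was more often seen in TE than in ICM. In both libraries of TE 4258 members were marked (10.9%, against 4.89% of all bins). In both libraries of TE and neither of ICM 1893 were marked (4.85%, against 1.86%), and in the reverse case 229 (0.586%, against 0.84%). An exact permutation test of 2 libraries against 2 cannot fall below p = 0.33, and none was made. The H3K9me3 lists covered 96.6 and 128 Mb of the autosomes in ICM and 153 and 154 Mb in TE. H3K27me3 marked 2778 members in both libraries of TE and neither of ICM (7.11%, against 1.88%). In the reverse case it marked 1010 (2.59%, against 1.12%), so both shares lay above all bins, unlike those of H3K9me3.

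Members with both repressive marks were also counted in TE. Both libraries of TE carried H3K27me3 on 12230 members (31.3%, against 9.62% of all bins), and both marks on 3679 (9.42%, against 3.88%). The shared members were 86.4% of those with H3K9me3 and 30.1% of those with H3K27me3, where the shares over all bins were 79.3% and 40.4%. Kept bins were near the members, with 88.1% and 31.1%. Of the 4258 members with H3K9me3, a mean of 91.3% carried H3K27me3 in BL and 84.1% in ICM. The same was not counted for all bins or kept bins with H3K9me3 in TE.

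In the α-amanitin group both repressive marks lay on more members than in untreated 8-cell embryos. H3K27me3 marked 7.49% and 8.08% of members in 8A, against 4.27% and 4.66% in 8C. H3K9me3 marked 10.0% and 9.14% in 8A, against 5.86% and 5.64% in 8C. The shares of all bins were also higher in 8A, by less: 5.82% and 6.14% against 5.50% and 5.61% for H3K27me3, and 7.28% and 7.20% against 6.76% and 6.73% for H3K9me3. Kept bins had higher shares in 8A as well, so the rise was not particular to members. Their means were 3.93% in 8A against 2.23% in 8C for H3K27me3, and 5.16% against 2.67% for H3K9me3. H3K4me3 on members was lower in 8A, 2.78% and 2.11%, than in 8C, 3.41% and 8.11%, and so was the share of all bins, 2.36% and 1.98% against 2.76% and 4.72%. Members were required to lack H3K27ac in 8C and not in 8A. The groups did not overlap for any of the 3 marks, and no test was made since 2 against 2 libraries cannot reach the threshold.

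ATAC-seq peaks lay on oocyte-only bins in the blastocyst slightly more often than on all bins and far less often than on kept bins. They marked 3.26%, 5.80% and 5.91% of members in the 3 libraries of BL, 3.16%, 4.94% and 3.18% in ICM, and 4.04%, 5.30% and 3.66% in TE. The shares of all bins were 2.84% to 4.43%, lower than that of members in each of the 9 libraries, and those of kept bins 44.5% to 56.2%. All 9 libraries marked 408 members (1.04%, against 1.37% of all bins), and none of the 9 marked 34702 (88.8%, against 92.9%). Log2 enrichment was 0.38 ± 0.16 in BL, 0.20 ± 0.12 in ICM and 0.32 ± 0.08 in TE (SD, n = 3), and the 3 groups overlapped (exact permutation p = 0.293).

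Members that carried H3K4me3 in the oocyte differed from the rest of the members at later stages. H3K27me3 in BL marked a mean of 58.3% of the 8573 members with H3K4me3 in both libraries of GV, 40.3% of the 8283 with it in 1 library and 22.9% of the 22215 with it in none. H3K9me3 in TE marked 28.1%, 16.1% and 7.91% of these classes. H3K27ac in 8A marked 10.8%, 6.18% and 3.13%, and ATAC-seq in BL 11.04%, 5.66% and 2.40%. Of all bins, H3K27me3 in BL marked 11.1%, H3K9me3 in TE 6.18%, H3K27ac in 8A 3.99% and ATAC-seq in BL 3.77%. Members with H3K4me3 in neither library of GV thus lay above all bins for H3K27me3 in BL and H3K9me3 in TE. For H3K27ac in 8A and ATAC-seq in BL these members lay below all bins. H3K9me3 in MO, BL and ICM marked a mean of 3.70%, 4.17% and 3.78% of them, also below all bins (5.17%, 4.70% and 4.51%).

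The order of these classes by oocyte H3K4me3 held for active and repressive marks alike. The lowest and highest library of each class did not overlap with those of another class for H3K27me3 in BL, H3K9me3 in TE or H3K27ac in 8A. Kept bins showed an order of the same kind for H3K27me3 in BL, with 31.8% of those with H3K4me3 in both libraries of GV and 7.95% of those with it in none. The order on kept bins was the same for H3K9me3 in TE (12.8% and 2.48%), H3K27ac in 8A (69.8% and 27.3%) and ATAC-seq in BL (61.0% and 33.8%). Oocyte H3K4me3 bins without H3K27ac in any list had 69.9% under H3K27me3 in GV and 79.6% in BL. Both values were above those of members and kept bins with H3K4me3 in both libraries of GV.

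**Figure D3:**
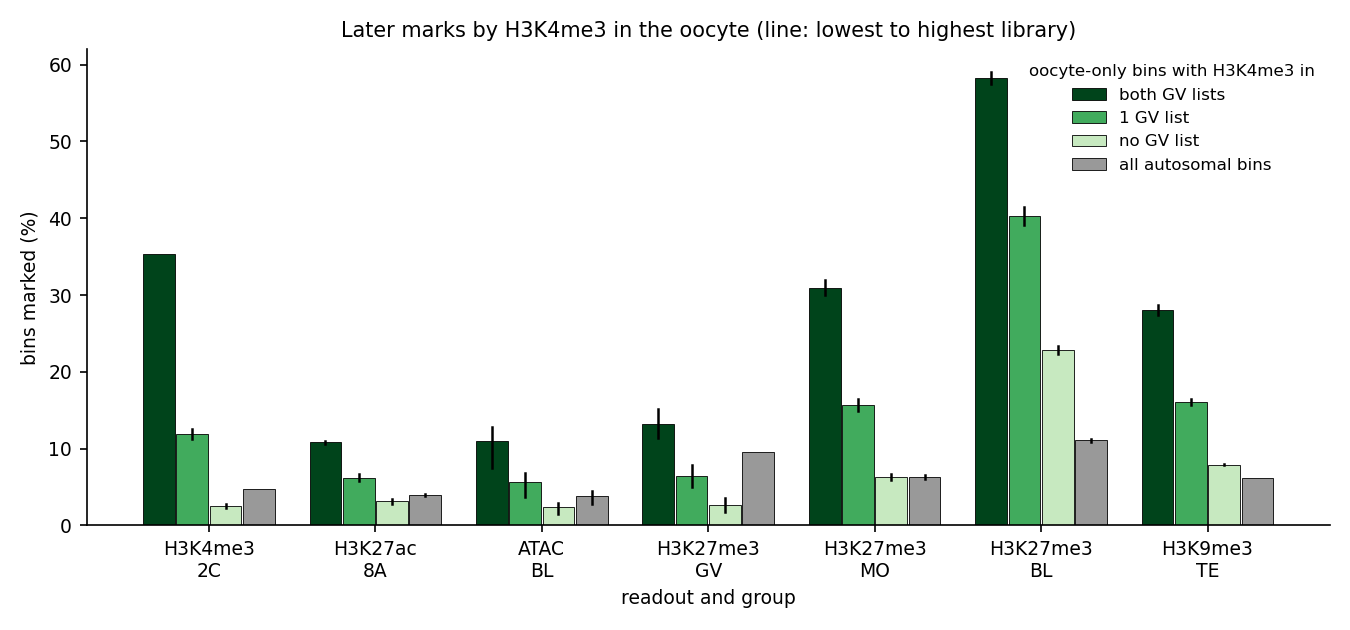
Share of bins marked (percent, y axis) for 7 readouts (x axis) in oocyte-only bins with H3K4me3 in both, 1 or no library of GV (dark to light green) and in all autosomal bins (grey). Bars are means over libraries and lines run from the lowest to the highest library. For H3K27me3 in BL the bars stand at 58.3%, 40.3%, 22.9% and 11.1%.

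The shares also differed with the length of a run. In the 3357 members of runs of 5 bins or more, H3K27me3 marked a mean of 42.3% in BL, H3K9me3 20.4% in TE and H3K27ac 1.47% in 8A. In the 16606 members of runs of 2 to 4 bins these shares were 34.3%, 13.3% and 3.81%, and in the 19108 single bins 32.9%, 13.6% and 7.59%. H3K27ac in 8A was lower in longer runs, whereas H3K9me3 in TE was higher in the runs of 5 or more and alike in the other classes.

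The marks around members were read up to 50 kb away. H3K27ac in GV marked 55.8% and 55.5% of the bins 1 kb to either side, 19.9% at 10 kb on each side and 11.2% and 11.6% at 50 kb, against 5.55% of all bins. H3K4me3 in GV went from 32.5% on members to 14.1% and 13.97% at 10 kb and 11.2% and 11.3% at 50 kb, against 6.64% of all bins. The value of H3K27ac on members themselves is fixed by the choice, and the surroundings of members were above all bins for both marks.

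H3K27me3 in BL also peaked over the members. It went from 34.3% on them to 25.0% and 25.6% at 10 kb and 20.5% and 20.8% at 50 kb, still above the 11.1% of all bins. Oocyte H3K27me3 had the opposite form, with 5.76% on members and 10.5% and 10.2% at 50 kb. H3K9me3 in GV formed the deepest dip, from 0.189% on members to 1.96% and 2.05% at 5 kb, 4.65% and 4.73% at 10 kb and 9.38% and 9.58% at 50 kb, where it was above the 7.51% of all bins. In TE H3K9me3 had become a peak, with 14.1% on members and 10.6% and 10.5% at 50 kb.

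H3K4me3 in BL was lower on members than beside them. It marked 1.52% of members, 3.22% and 3.17% of the bins 2 kb away, and 1.94% of all bins. H3K27ac in 8A had a similar dip, with 5.46% on members and 6.87% and 6.70% of bins 2 kb away. Members were chosen to lack later H3K27ac and their neighbours were not.

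**Figure D4:**
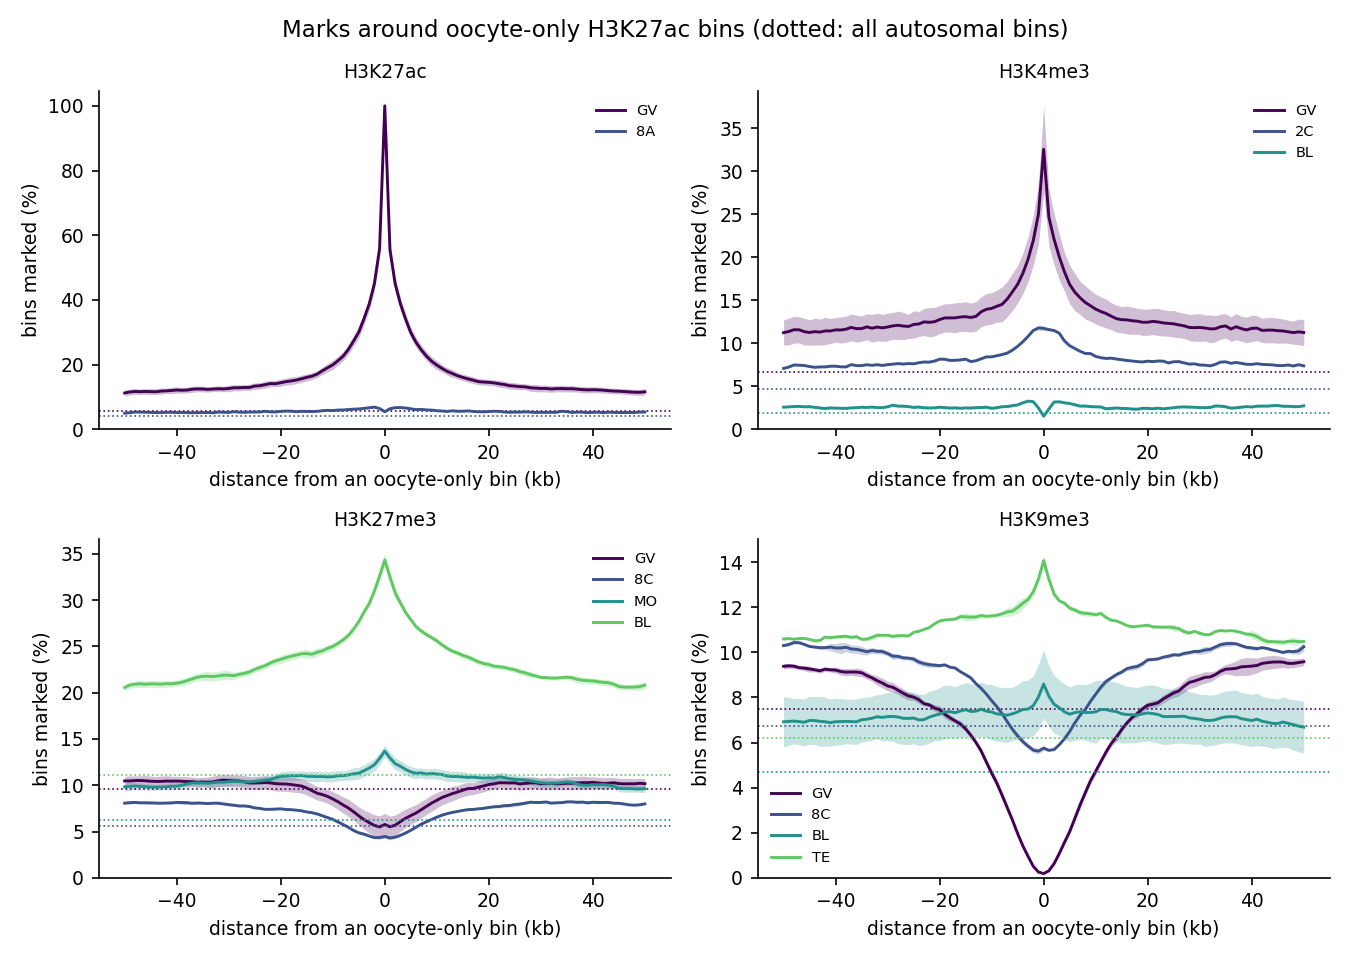
Mean share of bins marked (percent, y axis) against distance from an oocyte-only bin (kb, x axis), with 1 line per group, a band from the lower to the higher library and dotted lines for all autosomal bins. H3K27me3 in BL peaks at 34.3% over the bins, and H3K9me3 in GV dips to 0.189% there and passes its level in all bins about 20 kb away.

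H3K4me3 in GV and H3K27me3 in BL on members were also counted by autosome. Members made up 29.3% (chromosome 18) to 44.6% (chromosome 13) of the oocyte bins of a chromosome, with a median of 39.9%, and their density ran from 8.06 per Mb on chromosome 6 to 32.5 per Mb on chromosome 19. H3K27me3 in both libraries of BL marked 19.3% of members on chromosome 6 to 44.5% on chromosome 29, and more members than all bins on 29 of 29 autosomes. H3K4me3 in both libraries of GV marked 16.0% to 27.7%, also above all bins on 29 of 29. Chromosomes share their libraries and are not replicates.

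**Figure D5:**
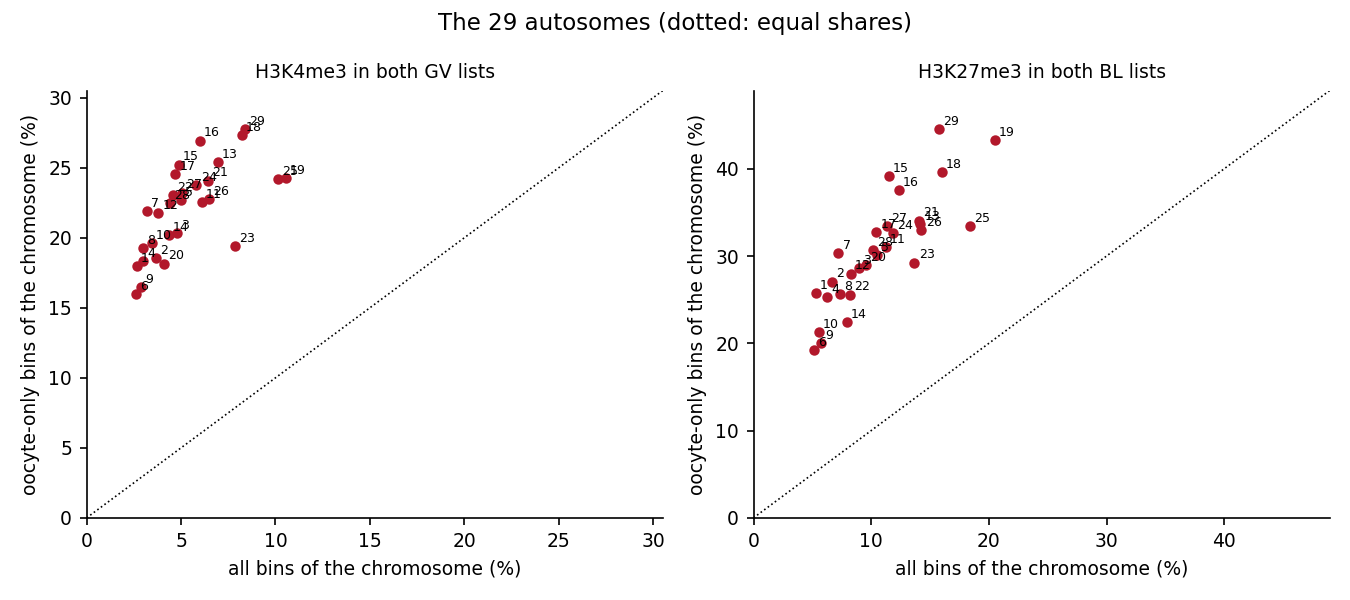
Percent of oocyte-only bins (y axis) against percent of all bins (x axis) marked by H3K4me3 in both libraries of GV (left) and by H3K27me3 in both libraries of BL (right), with 1 numbered point per autosome and a dotted line of equal shares. All 29 points lie above the line in both panels, from 16.0% to 27.7% on the left and from 19.3% to 44.5% on the right.

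Single regions show how members varied. Coordinates are of the ARS-UCD1.2 cattle genome, and the values are the percent of the region covered by peaks. The 10 longest runs of members and the longest run with each other mark were taken by rule. None is assigned to a gene, since no annotation of this build was used.

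The longest run, chr23:14085001-14099000, held 14 bins and was covered by H3K27ac over 93.2% and 97.5% in GV and 0% in both libraries of 8A. H3K4me3 covered 12.5% and 14.3% of it in GV. H3K9me3 had no peak there in GV, covered 60.0% and 65.7% in 2C and 35.7% and 100% in 8C, was at 0% in MO and ICM, and covered 0% and 48.6% in BL and 90.0% and 100% in TE. H3K27me3 had no peak there in GV or MO and covered 22.9% and 30.0% in 2C, 85.7% and 34.3% in 8C and 71.4% and 54.3% in BL. Both repressive marks were thus listed on this run from 2C to 8C, in neither library of MO, and again in TE.

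The run at chr20:16727001-16741000, also of 14 bins, behaved differently. H3K27ac covered 93.6% and 96.4% of it in GV. None of the H3K27me3 or H3K9me3 lists had a peak there at any stage, and H3K4me3 covered 6.1% in 1 library of GV. H3K27ac covered 2.86% of it in 1 library of 2C and none in the other later control libraries, and no peak of the other histone marks took their place.

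The run of 12 bins at chr15:26533001-26545000 was the longest with H3K27me3 in both libraries of BL. H3K27ac covered 90.0% and 93.8% of it in GV, where H3K27me3 had no peak. H3K27me3 covered 55.0% and 31.7% of it in MO and 100% in both libraries of BL and of ICM. H3K9me3 covered 91.7% and 100% of it in TE, 50.0% and 53.3% in MO, 0% and 53.3% in BL and 0% in both libraries of ICM.

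At chr26:22493001-22504000, a run of 11 bins, the oocyte had 3 marks at once. H3K27ac covered 97.7% and 100% in GV, H3K4me3 66.8% and 78.6%, and H3K27me3 100% and 38.2%. H3K27me3 had no peak there in 2C, 4C, 8C or MO and covered 100% in both libraries of BL. H3K9me3 covered 85.5% and 87.3% of it in 8A and had no peak there in any control library. Presence of these marks in 1 pool of oocytes does not show that they lay on the same chromosomes.

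The longest run with H3K4me3 in both libraries of GV, chr7:46549001-46556000, held 7 bins. H3K4me3 covered 65.0% and 72.1% of it in GV and had no peak there from 4C on. H3K27me3 covered 80.0% and 100% in 4C and 100% in both libraries of BL, and H3K9me3 covered 100% in both libraries of TE, 48.6% and 57.1% in BL and 0% in both libraries of MO and of ICM.

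The longest run with H3K27ac in both libraries of 8A, chr19:55748001-55751000, held 3 bins. H3K27ac covered 95.0% and 96.7% of it in GV and 90.0% and 66.7% in 8A. H3K4me3 covered 31.7% and 41.7% in GV and 25.0% and 13.3% in 8C, and none of the BL, ICM or TE lists of H3K27me3 or H3K9me3 had a peak there. The longest run open in all 9 ATAC-seq libraries, chr7:21266001-21268000, held 2 bins, and H3K4me3 covered 87.5% and 90.0% of it in GV, 100% in both libraries of 8C and 0% and 60.0% in BL. H3K27ac there covered 67.5% and 45.0% in 8A, and H3K27me3 covered 100% in both libraries of GV and of BL.

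Of the members, 38 had H3K9me3 in both libraries of GV, and the longest run of these held 4 bins at chr1:453001-457000. H3K27ac covered 62.5% and 68.8% of it in GV, just above the coverage limit. H3K9me3 and H3K27me3 each covered 100% of this run in all 18 of their libraries. The longest member run with H3K27me3 in both libraries of GV, chr16:298001-305000, held 7 bins and was covered over 100% by H3K27me3 in all 18 libraries too.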

How the data were processed

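CUT&Tag and ATAC-seq peak lists of 81 libraries (72 and 9), 1 list per library, were used. They lie on ARS-UCD1.2, and the submitters' processing notes name SICER, SAMtools 1.9, Picard 2.26.10, BWA 0.7.9a, cutadapt 1.8.3 and Trim Galore 0.4.0. The deposited lists bear the name of the caller epic2, and whether epic2 or SICER produced them is unknown. The peak threshold, controls and duplicate handling were not given in the sources used here. Each peak in the deposited lists has an unnamed whole-number score, used here only to rank peaks. Peak edges lie on a 50 bp grid for ATAC-seq, H3K4me3 and H3K27ac and on a 200 bp grid for H3K27me3 and H3K9me3, so widths were not compared between these sets.

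Bins of 1 kb were marked at 50% coverage. Per library, the log2 ratio of the share of members over that of all autosomal (or kept) bins was taken with 0.5 added to each count. Stage effects were tested by permuting group labels over 16 libraries (100000 resamples), GV against later libraries by all 120 choices of 2 libraries (two-sided), both with Benjamini-Hochberg adjustment over 3 marks at a threshold of 0.05, and ATAC-seq by enumerating all groupings. Alternatives changed the coverage limit, bin width and start, list length, later condition, scaling, replicate block and each library. Scripts (Python 3.11.15, NumPy 2.4.6, pandas 2.3.3, matplotlib 3.10.9) were tested on simulated data. Named regions were the 10 longest runs of members and the longest run marked by H3K4me3, H3K27me3 or H3K9me3 in both GV or both BL lists, by H3K27ac in both 8A lists, or by ATAC-seq in all 9. The members, classes and regions were chosen with earlier results of these data known. Gene annotation and sequences were not used here.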

Additional observations from a re-analysis of the deposited data

Results flagged for a closer look

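Members and kept bins changed differently between the oocyte and the later control groups in 3 marks, by the test of that difference. The log2 ratio of the share of members to the share of kept bins in GV minus that in the later libraries was 2.94 for H3K4me3, -1.55 for H3K27me3 and -2.85 for H3K9me3. Each had an exact permutation p of 0.00833, the smallest that 2 against 14 libraries allow, and in each both libraries of GV lay outside the range of all 14 later libraries. Kept bins had been picked for later H3K27ac and members for its absence, so the later ratios are tied to the choice of bins. Groups of 2 or 3 libraries were too small for a check of single outlying libraries.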

How the results depend on the processing

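The share of oocyte H3K27ac bins that were oocyte-only, 38.5%, followed the definition: it was 31.6% where any covered base marked a bin, 45.2% at 75% coverage, 46.4% in 2 kb bins, 43.7% in the highest-scoring 50% of each list and 26.1% with no covered base later, and 38.5% to 44.4% without single libraries, the highest without H3K27ac GV replicate 1. The 8A minus 8C difference reversed to 0.875 points with any covered base, 0.122 in 500 bp bins and 0.0768 in the highest-scoring 50% of the lists, and ranged from -0.925 to 0.921 without single libraries, turning positive without either replicate of H3K27ac 2C. The H3K27me3 difference between GV and later groups did not pass as an unscaled share (-12.1 points, exact permutation test, adjusted p = 0.325).

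Without single libraries the GV minus later difference ranged from 1.89 to 2.15 for H3K4me3, from -1.80 to -0.896 for H3K27me3 and from -5.84 to -5.04 for H3K9me3, and against kept bins from 2.76 to 3.07, from -1.65 to -1.16 and from -3.06 to -2.21. Leaving out a GV library of the mark itself allowed no p below 0.0667. The cause of these changes was not tested. In these comparisons, 445 of 473 recomputed values kept their direction and their side of the threshold, or moved by no more than the SD where no test applied. Of 248 recomputed shares of members marked in single groups, 124 moved by more than the SD of 2 or 3 libraries and none has a direction to reverse.

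Replicate numbers did not pair the libraries: over 28 pairs of groups per mark the correlation of deviations lay between -0.0709 and 0.0225. With the replicate number as a block, the stage tests gave adjusted p of 0.00033, 0.00033 and 0.00012 and the GV tests 0.0234, 0.0313 and 0.0234 in the order H3K4me3, H3K27me3, H3K9me3, and the kept-bin tests 0.0156 each, so no call changed. Depth is unknown, and 2 libraries per group limit every comparison.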

Other observations

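On the X chromosome, which the choice of members left out, 2322 bins were marked by H3K27ac in both libraries of GV, and 1267 of these (54.6%) were unmarked in all 14 later control libraries. That share was above the 44.6% of the highest autosome. It was not tested.

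Of the bins marked in both oocyte libraries, 14632 (14.4%) were marked in exactly 1 of the 14 later control libraries and so were neither members nor kept bins.

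A run of 9 members at chr29:431001-440000 was the longest with H3K9me3 in both libraries of BL. H3K27ac covered 84.4% and 90.6% of it in GV, where H3K9me3 had no peak, and H3K9me3 covered 100% of it in both libraries of 8C, of 8A, of BL and of TE. In ICM H3K9me3 covered 100% in replicate 1 and 0% in replicate 2. Another run, of 2 members at chr22:49380001-49382000, had H3K4me3 over 87.5% and 97.5% in BL and none in GV.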
